A study of Homo sapiens with 6 samples.

Results

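The response to TGF-β1 was followed in MHCC97L and MHCC97H, a pair of human hepatocellular carcinoma cell lines that were derived from the same parental tumour line and are known for low and high metastatic potential. The comparison set the TGF-β1 library of each line against the control library of the same line, so it uses 4 of the 6 libraries of the series, and the 2 libraries of HCCLM3, a line derived from lung metastases of MHCC97H, enter only where the pair is set against it. Each line was represented by 1 control library, labelled 4 h, and by 1 library from cells given TGF-β1 at 2.5 ng/mL for 4 h. All the cells were grown in DMEM with fetal bovine serum and antibiotics, so the controls had serum as well. The labels do not say whether the libraries came from separate cultures, no line was sequenced more than once per condition, and the related origin of the lines limits them as independent models.

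TGF-β1 binds the receptor kinase TGFBR2, which activates TGFBR1, and the active receptor phosphorylates SMAD2 and SMAD3. These enter the nucleus with SMAD4 and act together with AP-1 and other factors on target genes, several of which encode inhibitors that switch the pathway off again. In hepatocytes the pathway is known for growth arrest and cell death, and in carcinoma cells also for changes in adhesion and migration and for secreted factors that act on stromal cells.

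Total expected counts ran from 20407269 to 23242862 in the 4 libraries. Levels are given as CPM, a count divided by its library's total in units of 1e6 and scaled by TMM (an edgeR scaling that balances libraries over most genes). A change is the log2 level with TGF-β1 less that in the control, fitted over n = 2 lines. Its standard error (SE) is the one implied by the test named next, so it is not the plain spread of the 2 lines. "Rose" and "fell" are used for genes with an adjusted p under 0.05 in edgeR's quasi-likelihood test (Benjamini-Hochberg, 14344 genes). With the line as a term of the fit, that test has 1 residual degree of freedom. A spread shared across genes lends it a median of 25.8 more. A p-value sets the mean change of the lines against that shared spread and, with less weight for most genes, against their disagreement. It says nothing of cultures within a line. In such libraries fewer cells of a kind and less RNA per cell cannot be told apart.

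Markers of the labelled cell type were present in part. Of 12 markers of hepatocellular carcinoma lines, 10 were measurable. Of these 10, 5 rose (50%) and 1 fell (10%), beside 16.0% and 13.9% of all genes. Their summed level went from 7836 to 9430 CPM in MHCC97L and from 6973 to 9470 CPM in MHCC97H. KRT8 lay between 4823 and 6600 CPM and HNF4A between 98.4 and 209 CPM, ALB between 8.91 and 23.02 CPM and AFP between 4.06 and 5.31 CPM, while GPC3 had 0 counts in every library and EPCAM 4 to 15 counts. Of 13 stellate cell and fibroblast markers 5 passed the filter on low counts, with a summed level of 48.2 and 49.97 CPM in MHCC97L (control, TGF-β1) and 70.9 and 69.2 CPM in MHCC97H. ACTA2 had 0 to 3 counts and POSTN 0 counts in all 4 libraries. The 5 endothelial markers measured summed to 36.3 to 46.6 CPM, with TIE1 at 0 counts, and the 6 leukocyte markers to 130 to 187 CPM, most of it CD68, with PTPRC at 0 to 3 counts. In each of these 3 lists of other cell types 0 genes rose by edgeR's test, at an unadjusted p under 0.05, by DESeq2 or by limma-voom, and 1 fell by edgeR's test. Their part in the changes described next was not tested.

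After 4 h with TGF-β1, the genes that rose included inhibitors of the pathway itself, AP-1 and EGR/KLF transcription factors, secreted growth factors, keratins, integrins, matrix genes and cell cycle inhibitors. The genes that fell included the receptor genes TGFBR2 and TGFBR3, 3 of 6 BMP targets, several liver transcription factors and inhibitors of receptor tyrosine kinases. In all 4291 of 14344 genes passed the threshold (29.9%), 2301 that rose (16.0%) and 1990 that fell (13.9%), and 5610 had an unadjusted p under 0.05. Most changes were small: 3365 of the 4291 were under 1.5-fold, whereas 247 rose and 88 fell by 2-fold or more. The median change of all genes tested was -0.0049. The share of called genes that rose, 53.6%, was 45.3% with upper quartile scaling and 44.0% with library totals, so the balance of small changes depends on the scaling. Without the line as a term, 383 genes were called (282 rose, 101 fell), and DESeq2 with the line as a term called 1223 (827 and 396). When 1 library was left out, which also takes the line out of the fit, edgeR's test called 263 genes without the MHCC97L control, 102 without the MHCC97H control and 0 without the treated library of MHCC97L or MHCC97H, with 2651 and 2195 at an unadjusted p under 0.05.

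Many counts were not whole numbers, as in estimates that share out reads between similar genes. Of the 335 genes that changed by 2-fold or more, 161 had whole counts in all 4 libraries. Genes without whole counts, and genes that share exon bases with another gene, are uncertain, since the labels do not say whether strand was used in counting.

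The largest rise among genes with a symbol, a mean of 5 CPM or more and the same direction in both lines was that of PMEPA1, which encodes a membrane protein that binds SMADs and restrains the pathway. PMEPA1 (ENSG00000124225.15, hg38 chromosome 20, 57648392 to 57711536) stood at 21.1 CPM in control and 187 CPM in TGF-β1-treated MHCC97L, and at 13.0 and 154 CPM in MHCC97H. The treated libraries lay far above both controls, a rise of 3.34 (SE 0.095), or 10.1-fold, with an adjusted p of 1.42e-13 by edgeR's quasi-likelihood test. PDGFB (ENSG00000100311.16, chromosome 22, 39223359 to 39244751), the gene of the B chain of platelet-derived growth factor, a mitogen of stromal cells, went from 13.7 to 104 CPM in MHCC97L and from 7.66 to 79.8 CPM in MHCC97H, a rise of 3.13 (SE 0.10, adjusted p 1.42e-13). In both genes MHCC97H started lower, ended lower and changed by the larger ratio: the within-line change of PDGFB was 2.92 in MHCC97L (95% counting interval 2.76 to 3.10) and 3.37 in MHCC97H (3.15 to 3.62). PMEPA1 shares exon bases with NKILA.

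RND1 (ENSG00000172602.9, chromosome 12, 48857145 to 48865898) encodes an atypical small GTPase that loosens actin stress fibres. It went from 10.0 to 60.9 CPM in MHCC97L and from 9.33 to 65.4 CPM in MHCC97H, so that the lines lay close together in both conditions, and it rose by 2.70 (SE 0.097, adjusted p 1.74e-17). ULK1 (ENSG00000177169.9, chromosome 12, 131894651 to 131923167), the gene of the kinase that starts autophagy, went from 77.1 to 289 and from 68.4 to 321 CPM, a rise of 2.07 (SE 0.078, adjusted p 2e-13). JUNB (ENSG00000171223.5, chromosome 19, 12791496 to 12793315), an AP-1 factor, went from 89.1 to 399 and from 64.6 to 399 CPM. The treated levels of JUNB were equal in the 2 lines and it rose by 2.39 (SE 0.13, adjusted p 0.000205), though it shares exon bases with HOOK2. EGR2, an early zinc-finger factor, went from 8.17 to 26.8 and from 3.16 to 18.2 CPM (2.07, SE 0.19, adjusted p 8.08e-05).

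The other genes among the 14 with the largest rise did not have whole counts. They were the injury keratins KRT16 (1.75 to 12.8 CPM in MHCC97L, 0.67 to 7.51 CPM in MHCC97H) and KRT17 (18.8 to 128, 7.23 to 65.5), ANGPTL4, which encodes a secreted inhibitor of lipoprotein lipase (36.4 to 250, 23.3 to 192), and SAMD11 (1.09 to 8.17, 1.91 to 11.3). The glucose transporter gene SLC2A3 went from 5.85 to 33.8 CPM in MHCC97L and from 1.48 to 6.73 CPM in MHCC97H, so the treated MHCC97H level was close to the untreated MHCC97L level. CXCR5 (change 2.28), PPP1R13L (2.18) and the cytokine gene IL11 (2.14) completed them. CXCR5 shares exon bases with BCL9L, SAMD11 with NOC2L and ANGPTL4 with RAB11B-AS1.

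**Figure D1:**
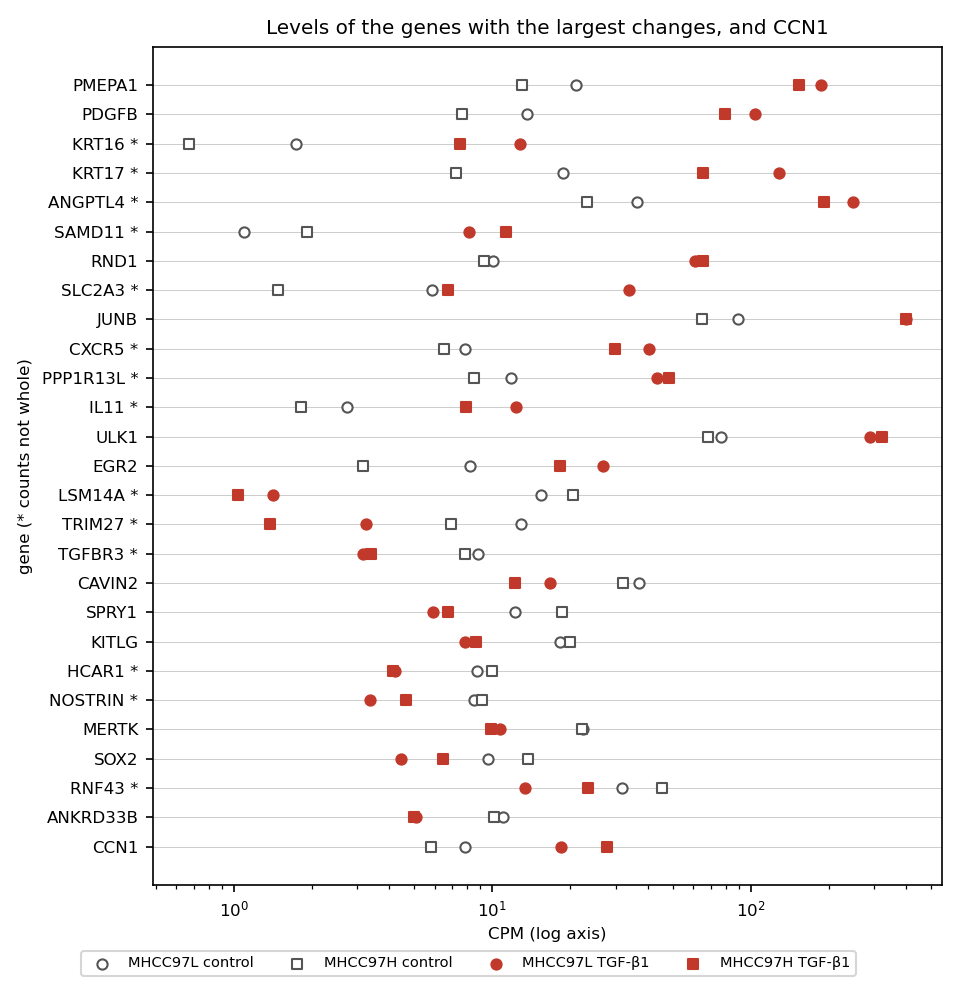
Level in each of the 4 libraries (CPM, log axis) of the 14 genes with the largest rise, the 12 with the largest fall and CCN1, with open symbols for control, filled for TGF-β1, circles for MHCC97L and squares for MHCC97H, and an asterisk where counts were not whole. For every gene shown both treated libraries lie on the same side of both controls, the narrowest gap among the risers being that of SLC2A3, with 6.73 CPM in treated MHCC97H and 5.85 CPM in control MHCC97L.

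LSM14A and TRIM27 headed the genes that fell, from 15.5 to 1.42 and from 13.0 to 3.24 CPM in MHCC97L and from 20.6 to 1.04 and from 6.94 to 1.38 CPM in MHCC97H, but neither had whole counts. Among genes with whole counts, CAVIN2, which encodes a coat protein of caveolae, went from 37.1 to 16.7 and from 32.1 to 12.2 CPM and fell by 1.27 (SE 0.096, adjusted p 8.94e-11). SPRY1, an inhibitor of growth factor receptor signalling, went from 12.3 to 5.90 and from 18.6 to 6.77 CPM and fell by 1.26 (SE 0.15). KITLG, the gene of the KIT receptor's ligand, went from 18.3 to 7.86 and from 20.003 to 8.63 CPM and fell by 1.21 (SE 0.13, adjusted p 3.75e-08). The 2 lines were within a small margin of each other for MERTK, a receptor kinase gene for apoptotic cell uptake, at 22.5 and 22.2 CPM in control and 10.7 and 9.92 CPM after TGF-β1 (-1.11, SE 0.11). SOX2, a stem cell transcription factor gene, went from 9.66 to 4.44 and from 13.8 to 6.47 CPM (-1.10, SE 0.16), and ANKRD33B from 11.0 to 5.06 and from 10.1 to 5.00 CPM (-1.07, SE 0.16). TGFBR3 (-1.34), the lactate receptor gene HCAR1 (-1.16), NOSTRIN (-1.14) and the WNT receptor ligase gene RNF43 (-1.08) also fell, without whole counts. CAVIN2 shares exon bases with CAVIN2-AS1, and KITLG with an antisense gene.

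Promoter sequences of responders were set beside these changes, since SMAD3 and SMAD4 are known to bind the letters CAGAC or their reverse complement GTCTG. RefSeq promoters (GRCh38.p14, 250 bases before to 50 after the start) were matched by symbol for 167 of the 247 genes that rose by 2-fold or more, 40 of the 88 that fell as much and 10778 of all 14344 genes tested. CAGAC or GTCTG stood in 55.1%, 45.0% and 43.1% of them, and the longer CAGACA or TGTCTG, which contains it, in 21.6%, 10.0% and 12.7%. In the 250 bases before the start alone CAGAC or GTCTG stood in 45.5%, 45.0% and 36.1%, so 2-fold risers and fallers were alike there. CAGACA or TGTCTG stood in 17.4%, 2.5% and 10.3%. The fallers' shares rest on few promoters, 4 of 40 with the longer motif in the full window and 1 in the shorter. The AP-1 motif TGANTCA, which reads alike on both strands, stood in 8.98% of the 2-fold risers, 2.50% of the 2-fold fallers (1 of 40) and 4.79% of all. These shares are descriptions of letters in a window, not of binding. The 250 bases before the start are printed 5′ to 3′ on the coding strand for the 4 largest risers with an entry in the table (PMEPA1, ANGPTL4, SAMD11 and JUNB), and for PTHLH and COL7A1, 2 direct target genes that rose and were chosen after the data were seen because they hold CAGACA or TGTCTG. Capitals mark CAGAC or GTCTG. The windows lie at chr20:57711473-57711722 (minus strand) for PMEPA1, chr19:8363905-8364154 (plus) for ANGPTL4, chr1:925481-925730 (plus) for SAMD11, chr19:12791236-12791485 (plus) for JUNB, chr12:27969977-27970226 (minus) for PTHLH and chr3:48595330-48595579 (minus) for COL7A1.
PMEPA1: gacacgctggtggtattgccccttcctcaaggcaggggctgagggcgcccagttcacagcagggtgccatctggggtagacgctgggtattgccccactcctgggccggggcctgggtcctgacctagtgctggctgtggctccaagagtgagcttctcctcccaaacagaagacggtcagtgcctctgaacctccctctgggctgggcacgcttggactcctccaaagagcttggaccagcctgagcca
ANGPTL4: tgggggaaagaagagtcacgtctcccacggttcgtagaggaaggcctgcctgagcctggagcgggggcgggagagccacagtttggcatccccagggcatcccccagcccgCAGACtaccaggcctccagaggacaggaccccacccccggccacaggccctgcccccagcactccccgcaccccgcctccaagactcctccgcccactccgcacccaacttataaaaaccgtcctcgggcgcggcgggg
SAMD11: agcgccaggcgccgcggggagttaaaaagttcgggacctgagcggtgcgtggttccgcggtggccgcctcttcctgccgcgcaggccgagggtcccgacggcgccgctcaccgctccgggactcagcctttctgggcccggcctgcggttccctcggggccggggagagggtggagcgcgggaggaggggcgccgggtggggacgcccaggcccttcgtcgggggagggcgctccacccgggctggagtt
JUNB: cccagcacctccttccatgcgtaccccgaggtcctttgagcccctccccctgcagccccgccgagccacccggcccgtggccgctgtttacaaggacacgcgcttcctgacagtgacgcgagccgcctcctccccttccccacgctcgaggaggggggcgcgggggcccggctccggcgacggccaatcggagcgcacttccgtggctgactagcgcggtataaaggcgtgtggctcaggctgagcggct
PTHLH: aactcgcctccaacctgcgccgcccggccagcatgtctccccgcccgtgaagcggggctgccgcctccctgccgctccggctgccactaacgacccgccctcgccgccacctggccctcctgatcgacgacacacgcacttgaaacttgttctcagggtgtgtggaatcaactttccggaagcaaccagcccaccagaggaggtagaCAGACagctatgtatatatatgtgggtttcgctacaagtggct
COL7A1: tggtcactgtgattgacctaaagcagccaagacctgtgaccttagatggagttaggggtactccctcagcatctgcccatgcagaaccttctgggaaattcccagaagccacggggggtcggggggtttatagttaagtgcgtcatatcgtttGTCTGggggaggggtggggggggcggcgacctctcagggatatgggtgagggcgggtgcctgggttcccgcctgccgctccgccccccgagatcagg
Of these 6 windows, ANGPTL4, PTHLH and COL7A1 hold 1 match each and PMEPA1, SAMD11 and JUNB hold 0, so a large rise was seen with and without the letters in this window. GENCODE places the outer start of PMEPA1, ANGPTL4, SAMD11 and PTHLH upstream of the RefSeq start used, and PDGFB, KRT17, RND1, CCN1 and SNAI1 had no entry.

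Of 18 receptor and SMAD genes of the pathway 3 rose (16.7%) and 6 fell (33.3%), beside 16.0% and 13.9% of all genes. Their median was -0.15 beside -0.0049 for all genes. These values for all genes are the background of each list below. TGFBR2, the ligand-binding receptor, went from 115 to 71.5 CPM in MHCC97L and from 132 to 86.0 CPM in MHCC97H and fell by 0.65 on the log2 scale (SE 0.070, adjusted p 5.92e-08). TGFBR1, its signalling partner, went the other way, from 19.3 to 25.8 and from 19.7 to 25.8 CPM (0.40, SE 0.093, adjusted p 0.0015). The co-receptor TGFBR3 fell from 8.78 to 3.15 and from 7.85 to 3.41 CPM, ACVR1 rose by 0.56 and the BMP receptor gene BMPR2 by 0.83, the last without whole counts. Among the other genes that fell were SMAD1 (-0.44), which carries BMP signals, ACVR1B (-0.36), ZFYVE9 (-0.42), which presents SMADs to the receptor, and the corepressor TGIF2 (-0.46). SMAD3 (-0.14, adjusted p 0.102) and SMAD4 (0.0024, adjusted p 0.988) did not pass.

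Of 13 inhibitors that the pathway induces against itself, 8 rose and 0 fell by edgeR's test (0 also by DESeq2, by limma-voom and at an unadjusted p under 0.05), 12 were higher in both lines, and the median was 0.54. SMAD7, which blocks the activated receptor, went from 21.2 to 43.8 and from 19.4 to 45.6 CPM and rose by 1.14 (SE 0.090, adjusted p 2.17e-10). The SMAD corepressor SKIL went from 63.8 to 95.5 and from 71.3 to 100.4 CPM (0.54), the scaffold gene NEDD9 rose by 1.07, and SKI, SMURF2 and SMAD6 by 0.50, 0.35 and 0.25. LDLRAD4, a relative of PMEPA1, was near the floor in the controls (3 and 2 counts) and reached 1.15 and 1.34 CPM after TGF-β1, a rise with an adjusted p of 5.83e-05 whose size is poorly known. SKIL and NEDD9 lacked whole counts.

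Of 15 ligands and binding proteins of the family, 4 rose (26.7%) and 3 fell (20%), beside 16.0% and 13.9% of all genes (median -0.08). TGFB1, the gene of the ligand itself, went from 161 to 252 and from 147 to 289 CPM and rose by 0.81 (SE 0.076), without whole counts. The latent TGF-β binding protein genes LTBP2, LTBP3 and LTBP4 rose by 0.85, 0.66 and 0.76. INHBB, an activin subunit gene, fell from 149 to 87.4 and from 72.0 to 43.4 CPM (-0.75, SE 0.071), as did BMP2 (-0.59) and GDF15 (-0.47).

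Of 24 genes listed as direct SMAD3 targets, all of them measured, 17 rose and 1 fell, with a median of 1.23, and 22 were higher in both lines. Without the line as a term 14 rose and 0 fell by edgeR's test, also 0 at an unadjusted p under 0.05. TGFBI, a matrix protein gene named for its induction by TGF-β, went from 103 to 309 and from 117 to 360 CPM, and its within-line changes of 1.59 and 1.62 were nearly equal (1.61, SE 0.067, adjusted p 6.29e-16). COL1A1 had 7 and 10 counts in the controls and reached 7.19 and 5.70 CPM, a rise of 4.02 (SE 0.29). COL7A1, the anchoring fibril collagen gene, rose by 2.24 and the parathyroid hormone-related peptide gene PTHLH by 1.85, from 5.16 to 16.6 and from 6.27 to 25.0 CPM. SNAI2, SNAI1, SKIL, TNFRSF12A, TGM2 and FOXQ1 rose by 1.36, 0.69, 0.54, 0.50, 0.39 and 0.21, and TSC22D1 fell by 0.23 on the log2 scale.

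Transcription factors of the early response followed. Of 11 AP-1 genes 5 rose and 0 fell by edgeR's test (0 also by DESeq2, by limma-voom and at an unadjusted p under 0.05; median 0.27), and the signed change was higher in MHCC97H than in MHCC97L for all 11, FOSL1 included, which was lower in both lines (-0.17 and -0.05). The share of all genes with the higher signed change in MHCC97H is not given here, so whether this is particular to the list was not tested. FOSB went from 1.27 to 5.41 and from 1.53 to 9.32 CPM (2.36, SE 0.22, counts not whole), and MAFK, MAFF and JUND rose by 0.68, 0.52 and 0.22, the last lost with library totals (adjusted p 0.0663) and by DESeq2 (0.310). Of 10 EGR and KLF genes 7 rose and 1 fell (median 0.64). KLF7 went from 18.5 to 42.0 and from 13.8 to 39.0 CPM (1.34, SE 0.096), KLF10, an early TGF-β gene, from 92.8 to 129 and from 75.7 to 122 CPM (0.58, SE 0.072), and KLF2 from 7.47 to 15.4 and from 10.0 to 18.2 CPM (0.95, SE 0.13). KLF4, a factor of epithelial differentiation, fell by 0.24 on the log2 scale.

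Of 23 secreted growth factors and cytokines 11 rose and 6 fell, with a median of 0.36 that was -0.03 without the MHCC97H control and -0.16 without the treated MHCC97L library. Beside PDGFB, the PDGFA gene rose by 1.12, FGF2 by 1.27, from 11.4 to 24.4 and from 7.47 to 20.5 CPM (SE 0.12), the angiogenic factor VEGFA by 0.59, HBEGF by 0.73, LIF by 0.63, CLCF1 by 0.43 and EDN1 by 0.36. KITLG fell together with the macrophage factor CSF1 (-0.46), the chemokines CXCL2 (-1.44) and CCL20 (-0.74) and the EGF receptor ligands TGFA (-0.53) and EREG (-0.26). FGF2 lacked whole counts and shares exon bases with NUDT6. Of 15 intracellular brakes on growth factor receptors 1 rose and 6 fell (median -0.13), with SPRY1 first, then ERRFI1, an inhibitor of the EGF receptor, from 252 to 187 and from 221 to 167 CPM (-0.42, SE 0.066), SPRED2 (-0.36), DUSP5 (-0.26), DUSP2 (-1.27) and SPRED3 (-0.60). DUSP1, a MAP kinase phosphatase, rose by 0.34.

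Genes of plasminogen activation and clotting included 6 of 12 that rose and 1 that fell (median 0.42). F3, the gene of tissue factor, which starts coagulation, went from 45.6 to 113 and from 28.4 to 83.1 CPM (1.42, SE 0.080, adjusted p 3.34e-13), and the urokinase receptor gene PLAUR rose by 0.85. TFPI, the inhibitor of tissue factor, fell by 0.30 on the log2 scale. F3, PLAUR and TFPI lacked whole counts.

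Among 16 regulators and markers of epithelial-mesenchymal transition 8 rose and 1 fell, with a median of 0.23; without the line as a term 0 passed by edgeR's test in either direction, with 5 higher and 1 lower at an unadjusted p under 0.05. SNAI2, a repressor of epithelial genes, went from 16.9 to 39.1 and from 9.38 to 27.1 CPM (1.36, SE 0.10, adjusted p 8.31e-11), and SNAI1 from 14.02 to 19.2 and from 10.2 to 19.6 CPM (0.69, SE 0.12). VIM, the gene of vimentin, stayed low, from 10.7 to 15.8 and from 9.71 to 15.0 CPM, and rose by 0.60 (SE 0.13, adjusted p 0.00104), and CNN1, SPARC, TAGLN, TPM1 and MMP14 rose by 1.79, 1.17, 0.75, 0.36 and 0.24. FN1, the gene of fibronectin, was the 1 that fell, from 11912 to 9080.0 CPM in MHCC97L and from 14200.2 to 9965 CPM in MHCC97H (-0.45, SE 0.075, adjusted p 4.14e-05). CDH1, the gene of E-cadherin, was at 9.35 and 8.57 CPM in MHCC97L and 11.4 and 9.10 CPM in MHCC97H, and its change of -0.23 did not pass (adjusted p 0.277). ZEB1 (-0.06) and CDH2 (0.15) did not pass either.

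Epithelial junction genes split, with 4 of 19 that rose (21.1%) and 6 that fell (31.6%), beside 16.0% and 13.9% of all genes (median -0.12). The plakoglobin gene JUP went from 249.9 to 437 and from 266 to 522 CPM (0.89, SE 0.066) and the tight junction gene CLDN4 from 223 to 418 and from 206 to 502 CPM (1.10, SE 0.087). The desmosomal gene PKP2 fell from 29.4 to 18.02 and from 24.4 to 14.6 CPM (-0.72), and CTNND1, which encodes the catenin p120, from 357 to 292 and from 394 to 320 CPM (-0.30). The splicing factor ESRP2 (-0.66) and TJP3 (-0.30) fell as well. Keratins rose in 6 of 11 cases with 1 that fell (median 0.57): after KRT16 and KRT17 came KRT81 (1.14), KRT8 (0.36), KRT19 (0.34) and KRT18 (0.32), and KRT20 fell by 0.38 on the log2 scale. No keratin had whole counts. Without the line as a term 0 keratins passed by edgeR's test, with 6 higher and 1 lower at an unadjusted p under 0.05.

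Integrin and matrix genes held 17 of 30 that rose and 4 that fell, with a median of 0.39. ITGA5, the α chain of the fibronectin receptor, went from 113 to 262 and from 98.8 to 246 CPM (1.26, SE 0.068, adjusted p 1.22e-13) and ITGA2, of the collagen receptor, from 38.6 to 81.8 and from 43.9 to 89.2 CPM (1.05, SE 0.076). The collagen cross-linking enzymes PLOD2 and LOX rose by 0.86 and 1.07 and BGN, ITGB3, LAMB3 and COL4A2 by 2.68, 1.31, 0.74 and 0.71. LAMA3 (-0.55), ITGB8 (-0.79), LAMC1 (-0.21) and FN1 fell. FN1 outweighed the rest in abundance: the summed level of the 30 genes went down, from 15796 to 13509 CPM and from 17948 to 14563 CPM, while most of them went up. ITGA2 lacked whole counts.

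Actin regulators and small GTPases held 13 of 29 that rose and 1 that fell (median 0.09), and the signed change was higher in MHCC97H than in MHCC97L for 25 of the 29. As for the AP-1 genes, no share over all genes stands beside the count of 25. Besides RND1 the genes that rose included PDLIM7, from 61.5 to 113 and from 41.4 to 97.98 CPM (1.06, SE 0.085), FHL2 (0.57) and the focal adhesion gene PXN (0.49), and VCL, the gene of vinculin, fell by 0.25 on the log2 scale. Axon guidance genes were near the background, 4 of 23 up and 5 down, among them the receptor gene EPHB2, from 6.82 to 16.3 and from 13.3 to 29.9 CPM (1.21, counts not whole), the ephrin gene EFNA1 (1.05), NRP2 (0.70) and NRP1 (-0.43).

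CCN1, also called CYR61, is the matricellular protein gene in the series title. It had whole counts and no exon overlap (ENSG00000142871.16, chromosome 1, 85580761 to 85583962). Its level was 7.86 CPM in control and 18.4 CPM in treated MHCC97L, and 5.79 and 27.8 CPM in MHCC97H. Both treated libraries lay above both controls, by 1.21 in MHCC97L (95% counting interval 0.97 to 1.48) and 2.25 in MHCC97H (1.98 to 2.55), and these intervals do not meet. The fitted change of 1.73 (SE 0.39) did not pass (adjusted p 0.140, edgeR quasi-likelihood), with a range from 1.90e-07 to 0.184 over the alternatives; it passed without robust weighting (0.00128), by limma-voom (0.000328), by DESeq2 and without the line as a term (0.0409). YAP and TAZ targets as a list were close to the background, 4 of 21 up, 3 down, median 0.16, with F3, GADD45A (0.62), NUAK2 (0.97) and CCDC80 (0.35) up and TEAD1 (-0.44), MYOF (-0.37) and CRIM1 (-0.22) down. CCN2 (1.14, SE 0.38) had changes of 0.72 and 1.58 in the lines and did not pass, and ANKRD1 (0.17) did not pass. YAP1 itself fell, from 113 to 92.8 and from 102 to 81.4 CPM (-0.31, SE 0.069, adjusted p 0.00129).

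CCN1 was 1 of 13 genes that were higher or lower by 2-fold or more in both lines but did not pass. In all 136 genes moved that far in both, 111 higher and 25 lower, among those with 5 CPM or more. Others with a symbol were SEMA7A, from 34.6 to 146 and from 13.4 to 104 CPM, ADGRG1, from 15.6 to 85.5 and from 6.65 to 78.8 CPM, FSTL3, a secreted activin antagonist gene, from 100.1 to 292 and from 60.3 to 269 CPM, JUN, from 163 to 329 and from 110 to 329 CPM, and the read-through gene RPL36A-HNRNPH2, which was lower. The 5 named that were higher all changed by more in MHCC97H, a count with no share over all genes beside it. A missed threshold here does not show that they were unchanged.

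**Figure D2:**
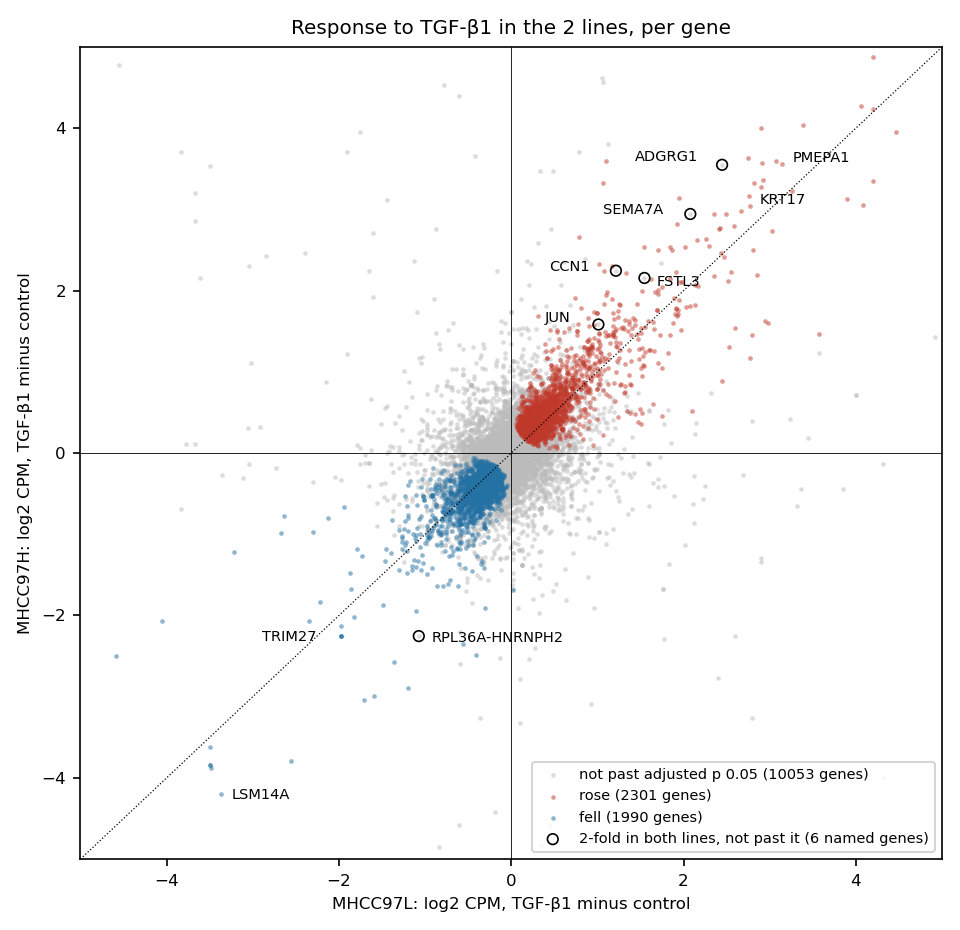
Log2 CPM, TGF-β1 minus control, in MHCC97L (x axis) and MHCC97H (y axis) for the genes tested, coloured by call, with circles around the 6 named genes that changed 2-fold or more in both lines without passing; 41 genes lie outside the axes. The called genes lie near the dotted diagonal of equal change, which the test favours by construction, since disagreement between the lines adds to its error.

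Notch genes rose in 5 of 13 cases (38.5%) and fell in 1 (7.69%), beside 16.0% and 13.9% of all genes. LFNG, a glycosyltransferase gene that tunes Notch receptors, went from 28.4 to 54.5 and from 22.6 to 55.3 CPM (1.11, SE 0.091), the target genes HEY1 and HES1 rose by 0.69 and 0.51, and NOTCH2 fell by 0.26 on the log2 scale. Without the line as a term 1 of 20 WNT genes rose and 1 fell by edgeR's test, with 3 higher and 4 lower at an unadjusted p under 0.05. In the reported fit 4 of the 20 rose (20%) and 6 fell (30%), beside 16.0% and 13.9% of all genes. The losses were mostly in the receptor complex and its control: LRP6 went from 42.3 to 28.2 and from 44.6 to 27.5 CPM (-0.64, SE 0.086), LGR4 from 44.2 to 29.8 and from 64.1 to 35.3 CPM (-0.72, SE 0.086), and ZNRF3 (-0.45), RNF43 and FZD5 (-0.26) fell, while NOTUM, a secreted WNT inhibitor, reached 4.44 and 5.05 CPM from 0.92 and 1.15 (2.197, SE 0.26). Of 6 targets of BMP signalling 3 fell (50%) and 2 rose (33.3%), beside 13.9% and 16.0% of all genes. Their median of -0.22 was 0.05 without the MHCC97H control and 0.06 without the treated MHCC97L library. Without the line as a term 1 fell and 0 rose by edgeR's test, with 2 lower and 1 higher at an unadjusted p under 0.05. In the reported fit ID2 fell from 44.3 to 26.9 and from 38.0 to 22.7 CPM (-0.73, SE 0.087), ID3 by 0.43 on the log2 scale and ATOH8 by 0.99. HEY1 and SMAD6 rose and ID1 did not pass. SOX4, a known TGF-β target, rose from 113 to 230.1 and from 127 to 277 CPM (1.07, SE 0.068, adjusted p 2.3e-12), against the fall of SOX2. ID3, RNF43 and LRP6 lacked whole counts.

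Liver transcription factors fell in 7 of 17 cases and rose in 2 (median -0.28). CEBPA, a factor of hepatocyte maturity, went from 88.2 to 47.8 and from 109.8 to 59.6 CPM, the same change of -0.88 in each line (SE 0.073, adjusted p 4.86e-10). PPARA (-0.68), HNF4G (-0.87), NR1H4 (-0.88) and ONECUT2 (-0.74) fell, and ONECUT1 (-2.54) from a low level. HNF4A went the opposite way, from 105 to 188 and from 98.4 to 209 CPM (0.96, SE 0.072), without whole counts, as did CEBPB (0.29). Plasma protein genes were near the background: of 18 measured 2 rose (11.1%) and 3 fell (16.7%), beside 16.0% and 13.9% of all genes. Among them SERPINA1 went up from 54.4 to 114 and from 28.7 to 49.3 CPM (0.94, SE 0.082, counts not whole). APOB went down from 9.35 to 6.57 and from 14.4 to 6.51 CPM (-0.83, SE 0.17).

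Of 18 genes of the cytostatic response 8 rose (44.4%) and 4 fell (22.2%), beside 16.0% and 13.9% of all genes. CDKN1A, the gene of the cyclin-dependent kinase inhibitor p21, went from 25.9 to 59.9 and from 28.7 to 77.2 CPM (1.32, SE 0.084, adjusted p 2.58e-12) and CDKN2B, of p15, from 13.0 to 32.5 and from 11.7 to 36.8 CPM (1.48, SE 0.10, counts not whole). GADD45B rose by 1.33, and MYC, a repressor of the p15 gene, fell from 179 to 135 and from 159.8 to 132 CPM (-0.34, SE 0.068, adjusted p 0.00036). Replication and mitosis genes changed little by 4 h: 1 of 27 rose (3.70%) and 5 fell (18.5%), beside the same shares of all genes (median -0.05). Among those that fell was the proliferation marker MKI67, from 528 to 415 and from 550.3 to 398 CPM (-0.41, SE 0.064). Apoptosis genes held 7 of 21 that rose (33.3%) and 3 that fell (14.3%), beside 16.0% and 13.9% of all genes. The share that fell was thus close to that of all genes. BMF, a pro-apoptotic BCL2 family gene, rose from 11.6 to 32.6 and from 18.1 to 40.5 CPM (1.32, SE 0.098), and the inhibitor BIRC3 fell from 67.9 to 31.9 and from 45.3 to 23.8 CPM (-1.01, SE 0.084, counts not whole). BIRC3 is also an NF-κB target, a list with 3 of 18 up (16.7%) and 6 down (33.3%), beside 16.0% and 13.9% of all genes (median -0.07).

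Genes of hypoxia and glucose transport included 9 of 18 that rose and 0 that fell by edgeR's test (1 was lower at an unadjusted p under 0.05, 1 fell with library totals, 0 by DESeq2 and limma-voom; median 0.19). The main glucose transporter gene SLC2A1 went from 292 to 518 and from 233 to 502 CPM (0.97, SE 0.070, adjusted p 7.37e-10), and CA9 from 16.7 to 29.3 and from 17.3 to 27.9 CPM (0.75, SE 0.094). Stress genes of the unfolded protein and ATF4 response held 7 of 20 up and 1 down, with DDIT4, an mTOR inhibitor, from 76.4 to 133 and from 60.2 to 128 CPM (0.94, SE 0.076). Circadian genes held 2 of 15 up and 6 down (median -0.36): the repressor BHLHE40 rose from 410.0 to 758 and from 285 to 700.2 CPM (1.09, SE 0.10), and CLOCK (-0.36), NR1D1 (-0.51), NR1D2 (-0.53), PER3 (-0.52) and TEF (-0.60) fell. Cholesterol and fatty acid synthesis genes (6 of 23 up, 4 down, median -0.04) and interferon-stimulated genes (3 of 17 up, 3 down, median 0.14) showed no common direction.

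Cytosolic ribosomal protein genes rose in 22 of 38 cases and fell in 0 by edgeR's test (2 were lower at an unadjusted p under 0.05, 1 fell with library totals, 0 by DESeq2 and limma-voom; median 0.19), for example RPS14 from 429.9 to 616 and from 382 to 559 CPM (0.54, SE 0.063, counts not whole) and RPL13 from 618 to 812 and from 531 to 775 CPM (0.47, SE 0.065). Without the line as a term 1 of them rose. The 13 mitochondrially encoded messages moved opposite and unequally. Their summed level went from 61379 to 51510 CPM in MHCC97L and from 60206 to 36769 CPM in MHCC97H, all 13 were lower in both lines and by more in MHCC97H, and 3 fell (MT-ND1, MT-ND5 and MT-CO1; 4 by DESeq2, 13 by limma-voom). In edgeR's test 0 fell without the line as a term (7 at an unadjusted p under 0.05) and 0 with the HCCLM3 libraries added (also 0 at an unadjusted p under 0.05), where the list's median was -0.15 instead of -0.56. The list's median change was -0.32 in MHCC97L and -0.83 in MHCC97H. In HCCLM3 the same sum went the other way, from 46797 to 67422 CPM. How far these sums bear on the other values was not tested.

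**Figure D3:**
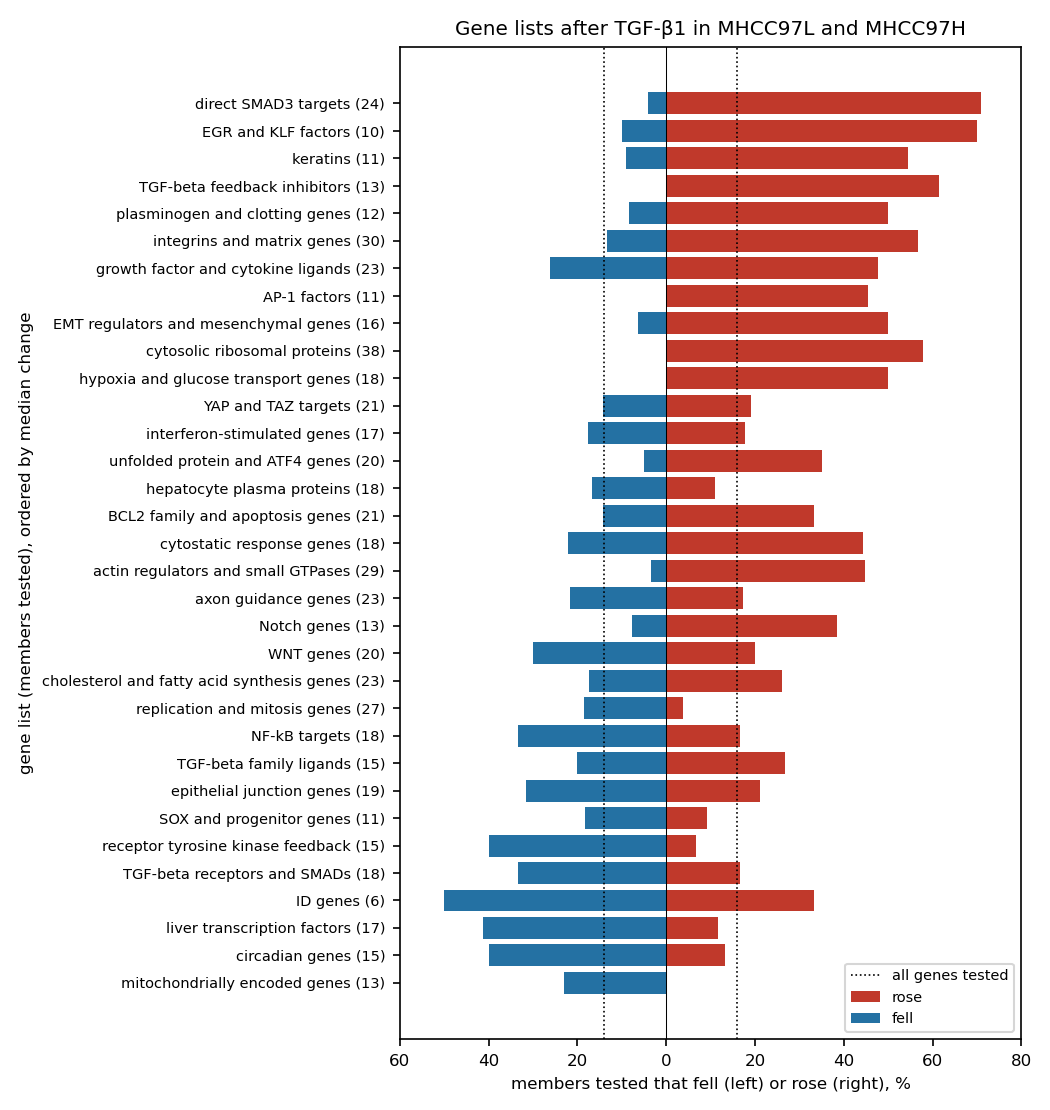
Percent of the measured members of each list (number in brackets) that rose (right) or fell (left) after TGF-β1, ordered by the list's median change, with dotted lines at the share of all genes tested (16.0% rose, 13.9% fell). The lists of cell type markers are not shown. Direct SMAD3 targets (17 of 24 rose) stand at the top and mitochondrially encoded genes (0 of 13 rose, 3 fell) at the bottom.

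Besides the genes for which this was given with their values, counts were not whole for ADGRG1, CCDC80, CD68, CDH1, CLCF1, CLDN4, CLOCK, CRIM1, CXCL2, EREG, ESRP2, FHL2, FZD5, ITGB8, MAFF, MAFK, MT-CO1, NOTCH2, NR1D1, NRP1, NUAK2, PER3, PKP2, PPARA, RPL36A-HNRNPH2, SMAD4, SMURF2, SPRED3, TAGLN, TGIF2, TPM1, VCL and ZNRF3. Among named genes with whole counts, exon bases are shared with another gene in BHLHE40, BMF, CA9, CCN2, CDH2, CDKN1A, CEBPA, COL4A2, CTNND1, DDIT4, ERRFI1, ID2, ITGA5, ITGB3, LDLRAD4, LIF, LOX, LTBP2, NRP2, PTHLH, PXN, SLC2A1, SMAD1, SMAD3, SOX4, SPARC, TGM2, TNFRSF12A, TSC22D1, VEGFA, VIM, YAP1, ZEB1 and ZFYVE9, and TGFB1, PPP1R13L and RNF43, without whole counts, share them as well.

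The lines of the pair were set side by side without a test, as each has 1 library per condition. Of genes with 5 CPM or more in either library, 138 of 11064 were 2-fold or more higher after TGF-β1 in MHCC97L (1.25%) and 44 lower (0.398%), against 201 of 11121 higher (1.81%) and 72 lower (0.647%) in MHCC97H. Among the 247 genes that rose by 2-fold or more in the joint fit, 167 changed by more in MHCC97H, with medians of 1.34 in MHCC97L and 1.5004 in MHCC97H. The 247 were chosen on these same libraries, and the share of all genes with the larger change in MHCC97H is not given here. Whether the count of 167 is particular to these genes was not tested. A gap between the lines of 1 or more on the log2 scale was seen in 53 of 11271 genes in favour of MHCC97H (0.470%) and in 51 in favour of MHCC97L (0.452%).

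Among genes with whole counts, those that changed by more in MHCC97H included CCN1, the tight junction gene CLDN14, from 1.31 to 5.33 and from 0.53 to 5.35 CPM (1.95 and 3.14), and the connexin gene GJA5, from 3.67 to 5.33 and from 2.01 to 5.91 CPM (0.53 and 1.52). PLCG2, a phospholipase gene, went down in MHCC97L, from 34.3 to 17.4 CPM, and up in MHCC97H, from 28.3 to 33.2 CPM, with counting intervals of -1.16 to -0.80 and 0.07 to 0.39. In the other direction the xenobiotic-metabolising gene CYP1B1 went up in MHCC97L, from 154 to 226 CPM (interval 0.50 to 0.62), and down in MHCC97H, from 142 to 105 CPM (-0.52 to -0.36), and its relative CYP1A1 from 3.28 to 6.43 and from 4.45 to 3.62 CPM. The apolipoprotein gene APOA4 (1.51 in MHCC97L, 0.36 in MHCC97H) and the ligand gene WNT5B (4.09 and 3.05, from 5 and 15 counts in the controls) were higher in both, though the counting interval of APOA4 in MHCC97H ran from -0.11 to 0.86. PLCG2, CLDN14, GJA5, APOA4 and CYP1B1 share exon bases with another gene.

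The response of the pair was last compared with that of HCCLM3 by an interaction term over all 6 libraries, where HCCLM3 gives 1 library per condition and the spread again comes from the pair. Of 14176 genes 381 differed at an adjusted p under 0.05 (2.69%), 199 with the higher change in the pair and 182 with the lower, and 2196 had an unadjusted p under 0.05. Only 121 of the 381 had whole counts, against 6573 of the 14176 tested, and DESeq2 called 21. Of the 247 2-fold risers of the pair, 229 had a value in HCCLM3, and 121 of these were 2-fold or more higher there. The 247 were chosen for their change in the pair libraries, which favours a lower count in HCCLM3. No share over all genes stands beside the 121, so it does not measure how much of the response is shared.

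By the fixed rule the genes with the smallest p were, with the higher change in the pair, CXCR5, HSPA1B, DDX24, IGFBP1, GATD3B and CGB8, and with the lower, LSM14A, CEP170, SSBP1, RPS9, PEDS1-UBE2V1 and TMEM258. Only IGFBP1 among these 12 had whole counts. Genes with whole counts and no shared exon bases were therefore listed as well, a choice made after the data were seen. IGFBP1, which encodes an insulin-like growth factor binding protein of the liver, was nearly level in the pair, at 85.3 and 82.9 CPM in MHCC97L and 39.6 and 36.1 CPM in MHCC97H, and went from 35.7 to 13.7 CPM in HCCLM3, a difference of 1.301 (SE 0.15, adjusted p 2.01e-08). With all 6 libraries scaled together, PDGFB changed by 2.93 and 3.37 in the pair and by 2.11 in HCCLM3, where it went from 38.5 to 166 CPM, so the pair's larger ratio started from a lower level and ended at a lower level (difference 1.02, SE 0.15, adjusted p 5.16e-05). TGFBI likewise changed by 1.60 and 1.62 against 1.03 (adjusted p 0.000700), from 336 to 687 CPM in HCCLM3.

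The BMP target ID1 was -0.13 and 0.12 in the pair and -0.61 in HCCLM3 (adjusted p 0.000754), and the vasodilator peptide gene ADM 0.31 and 0.59 against -0.25 (0.000432). With the lower change in the pair stood MT-ND1 (-0.24 and -0.64 against 0.65, adjusted p 0.000101), the oxytocin receptor gene OXTR (-0.49 and -0.02 against 1.03, 0.000175), the protocadherin gene PCDH1 (1.93 and 1.68 against 3.48, 0.00122) and the histone demethylase gene KDM6B (0.97 and 1.10 against 1.68, 0.00292). PCDH1 started at 8.23 and 16.0 CPM in the pair and at 0.43 CPM in HCCLM3. Of the 27 genes in the plot of levels, 9 differed between the pair and HCCLM3, and CCN1, at 2.13 in HCCLM3, was not among them (adjusted p 0.879). All but CCN1 were chosen for the largest changes in these same pair libraries, which favours a difference. The 9 are therefore not comparable with the 2.69% of all genes that differed.

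**Figure D4:**
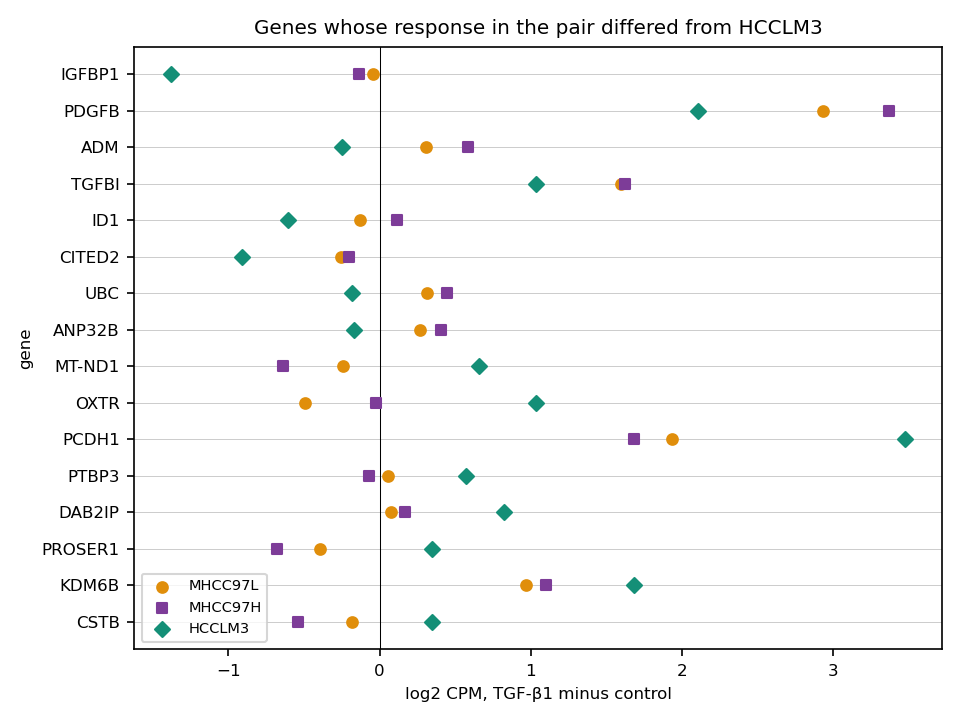
Log2 CPM, TGF-β1 minus control, in each line for the 16 genes with whole counts, no shared exon bases and the smallest p of the difference between the pair and HCCLM3, 8 with the higher and 8 with the lower change in the pair. The 2 MHCC97 lines lie on the same side of HCCLM3 for each gene, from IGFBP1 (difference 1.301) at the top to CSTB (-0.71) at the bottom.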

How the data were processed

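Per the labels' protocols, Trizol served to extract total RNA and libraries followed Illumina's standard procedure. Neither the kit nor its strandedness is named. The authors deposited expected counts per gene with Ensembl IDs, 1 file per library. Cufflinks 2.2.1, TopHat2 2.1.1, the build hg38 and Cuffdiff 1.3.0 appear in the submitters' processing notes with no role given. For the counting step, no tool is given in the sources used here. That the values are expected counts comes from the values: 63.6% to 64.0% in the 4 libraries were whole numbers and the others had decimals.

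Of 22091 gene IDs, 19311 could be matched to symbols (gene name table, GENCODE 29). The 2780 without a symbol carried 2.12% of the counts and were tested too. Counts were rounded, and genes kept by filterByExpr on the treatment groups and scaled by TMM (factors 0.977 to 1.02). TGF-β1 was tested with edgeR's robust quasi-likelihood test with line and treatment as terms in the 4 libraries (R 4.3.3, edgeR 4.0.16), and the difference from HCCLM3 with an interaction term in all 6. Thresholds were 0.05 after Benjamini-Hochberg adjustment. DESeq2 1.42.0 and limma 3.58.1 (voom) served as alternatives, with other scalings, filters and samples. The tests were checked on simulated data.

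Libraries were paired by the cell line named in the labels. Across genes, deviations from the condition mean correlated at 0.313 within each line, equal in both by construction with 2 pairs. Changes within a line used log2 CPM (prior count 2) and 95% exact conditional binomial intervals. A floor of 3 counts was 0.129 to 0.147 CPM. Without molecular identifiers, intervals and floors cover counting error only.

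The text names the 14 genes with the largest rise and the 12 with the largest fall (symbol, mean of 5 CPM or more, same direction in both lines), CCN1, and up to 5 called genes per list by smallest p. It also names 6 genes per direction between the lines (whole counts) and against HCCLM3. Other called genes of a list were added after their values were seen, as were ALB, AFP and the genes given as not passing. The 37 gene lists, the members and the rules were chosen with earlier results of these data known. Some genes stand on several lists. Some members that count in the lists are not reported here by name.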

Additional observations from a re-analysis of the deposited data

Results flagged for a closer look

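For 19 of the genes named by rule, the change in the pair minus that in HCCLM3 passed the interaction test (edgeR quasi-likelihood, Benjamini-Hochberg, 1 library per condition in HCCLM3). With the higher change in the pair, PDGFB differed by 1.02, KRT16 by 1.62, KRT17 by 0.66, SAMD11 by 1.35, SLC2A3 by 1.48, CXCR5 by 1.84, HSPA1B by 1.18, DDX24 by 2.53, IGFBP1 by 1.301, GATD3B by 1.47 and CGB8 by 2.75 on the log2 scale. With the lower change in the pair, LSM14A differed by -4.21, TRIM27 by -1.56, NOSTRIN by -1.56, CEP170 by -1.31, SSBP1 by -1.20, RPS9 by -1.14, PEDS1-UBE2V1 by -0.90 and TMEM258 by -0.87. All but PDGFB, KRT16, KRT17, SAMD11, SLC2A3, TRIM27 and NOSTRIN were named for the smallest p of this same test. The passing of the genes so named followed from that choice. The exceptions were named for the largest changes in these same pair libraries, which favours a difference. The count of 19 therefore reflects the naming rules and is not comparable with the share of all genes that differed. Among the 19, only PDGFB and IGFBP1 had whole counts. CGB8 went from 0.22 and 0.38 CPM in the pair's controls to 6.71 and 7.22 CPM, against 7.12 and 24.5 CPM in HCCLM3.

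Of the 12 genes with whole counts chosen for the largest gap between the lines, 7 had changes of opposite sign in MHCC97L and MHCC97H, which was not tested, as each line has 1 library per condition. The change in MHCC97H minus that in MHCC97L was 1.34 for NUDT18, 1.21 for PLCG2 and 1.01 for IFFO2, and -1.24 for CYP1A1, -1.11 for RASL11A, -1.07 for ZNF597 and -0.996 for CYP1B1. The 95% counting interval of 1 line included 0 for RASL11A (-0.32 to 0.56 in MHCC97L), ZNF597 (-0.10 to 0.81 in MHCC97L) and CYP1A1 (-0.74 to 0.15 in MHCC97H). CYP1A1 had 75 and 145 counts in MHCC97L and 93 and 84 counts in MHCC97H (control, TGF-β1).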

How the results depend on the processing

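The number of genes called (4291, 2301 up, 1990 down) stayed within 1.5 times under the other scalings and filters, limma-voom and non-robust weighting (3505 to 4293). DESeq2 called 1223 genes, 827 up and 396 down, with 161 list members (281 in the reported fit). With no replicate block (line not a term) 383 genes were called, 282 up and 101 down, with 55 list members and 18 of the 26 called named genes. With the HCCLM3 libraries added 2145 were called, 1159 up and 986 down. In all these fits the 27 named genes kept their direction, and with a replicate block in the pair the 26 kept their calls. Leaving out a whole line leaves no residual degrees of freedom. Leaving out 1 library, in edgeR's test without the block and with the lone library assumed to vary like the other condition, called 0 to 263 genes (0 to 197 up, 0 to 66 down), 0 to 16 of the named genes and 0 to 61 list members. The 0 came without the TGF-β1 library of MHCC97L or of MHCC97H, with 2651 and 2195 genes at an unadjusted p under 0.05. CD68 then ran from -0.41 to 0.043, changing sign without the MHCC97L control (0.043) or the MHCC97H TGF-β1 library (0.023). The medians of growth factors, of BMP targets and of lists near 0, such as apoptosis, NF-κB, Notch, WNT and lipid synthesis genes, also changed sign when 1 library was left out. The difference from HCCLM3 was called in 302 to 415 genes under the other scalings and with no filter, and in 21 by DESeq2. With at most 23242862 counts a library, genes under 0.147 CPM could not be told from absence.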
